A study of Arabidopsis thaliana with 12 samples.

Results

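PHV (PHAVOLUTA, AT1G30490) and YAB3 (YABBY3, AT4G00180) encode transcription factors of opposite sides of the leaf. PHV belongs to the class III HD-ZIP family and acts on the upper side, and YAB3 belongs to the YABBY family and acts on the lower side. Both were taken by name from the probe-to-gene table of the array, in which each had 1 oligonucleotide, and they are 2 of the 9694 genes tested here. The rule used no measured value, although the pair was proposed with earlier results of these data known.

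Ratios were measured on 12 arrays of 2 colours, 4 for each of root, cotyledon and petal. Every array held callus after 10 days on an auxin-rich medium that induces callus, together with untreated explant of the same organ at day 0. All plants were Arabidopsis thaliana of the ecotype Ler, grown normally, and the labels name no mutation or transgene. Replicates are biologically independent samples, and plant age and the number of plants in a sample were not given in the sources used here. In each organ the dyes were swapped, with callus in Cy5 for replicates 1 and 3 and in Cy3 for the other two.

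In leaves and floral organs, class III HD-ZIP factors specify upper-side fate and also act in the vascular tissue and in meristems. A conserved microRNA family cleaves their transcripts on the lower side, where KANADI, ARF and YABBY factors act. YABBY genes are known from lateral organs of the shoot, where YAB3 acts redundantly with its close relative FIL together with the co-repressors LEUNIG and SEUSS. A change in either gene between explant and callus therefore concerns genes known chiefly for patterning organs.

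All values are log2 ratios as the authors deposited them, written as callus over explant. This direction is the likely one, since the labels name callus first and day-0 tissue as the control, but it is not stated, and if explant over callus had been deposited, all signs below would turn together. A ratio holds no level of its own, so neither the abundance of a transcript nor the identity of the explant tissue could be checked from levels. In these bulk samples fewer cells that express a gene and less RNA per cell cannot be told apart.

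The deposited ratios stop at the log2 of a 100-fold ratio on either side, and values at this limit were treated as missing. Between 1.99% and 28.2% of the values on an array were at a limit. On root replicate 1, with callus in Cy5, the upper limit held 5566 values and the lower limit 10. On root replicate 2, with callus in Cy3, they held 3 and 5349. Root replicates 3 and 4 had the same dependence on the dye with fewer limits, 1834 upper and 34 lower on replicate 3 (callus in Cy5) and 1 upper and 1843 lower on replicate 4 (callus in Cy3). Root replicates 1 and 2 therefore stand apart from the other root arrays in the number of their limits. The ratio of YAB3 in root, its differences from root and the gap between PHV and YAB3 are given with and without them. The search for like profiles used all 12 arrays. They had 22.4% and 21.5% of their values at a limit. Petal replicates 1 and 2 had more, 24.1% and 28.2%, and cotyledon replicates 2 and 4 had 19.3% and 18.4%. These petal and cotyledon arrays were left out singly, but not in pairs. PHV and YAB3 were measured within the limits on all 12 arrays. The array number limits the precision of every value.

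PHV was higher in callus than in the explant in all 3 organs, most in root. In root its log2 ratio was 1.96, 2.11, 2.00 and 2.08 in replicates 1 to 4. In cotyledon it was 1.35, 1.18, 0.85 and 0.79, and in petal 1.60, 1.49, 1.52 and 1.39. All 12 arrays lay above 0, and as deposited the ranges of the 3 organs did not overlap. How many other tested genes had separate ranges was not counted. The differences between organs depend on the centring, as given below.

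The fitted PHV ratio in root was 2.04 ± 0.07 (SD, n = 4), a 4.11-fold rise with a 95% confidence interval from 3.52 to 4.79 (limma adjusted p = 8.21e-07). In petal it was 1.5 ± 0.09 (n = 4), 2.83-fold with an interval from 2.42 to 3.29 (limma adjusted p = 2e-07). In cotyledon it was 1.04 ± 0.27 (n = 4), 2.06-fold with an interval from 1.77 to 2.40 (limma adjusted p = 4.42e-06). Rises were common in these data: 39.9% of the tested genes were called higher in root, 40.7% in cotyledon and 45.2% in petal, at an adjusted p under 0.05. The size of the PHV ratio set it further apart in root than elsewhere, with 98.4% of tested genes below it there, 77.4% in cotyledon and 79.3% in petal.

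The PHV measurement repeated closely. Only 2.48% of tested genes had a smaller SD over the root arrays and 2.44% over the petal arrays, while 52.9% had a smaller SD over the cotyledon arrays. The dye made little difference, with means of 1.98 (callus in Cy5) and 2.10 (callus in Cy3) in root, 1.10 and 0.99 in cotyledon and 1.56 and 1.44 in petal. The dye term of PHV was 0.04 (limma adjusted p = 0.878), against 3.62% of genes whose dye term passed.

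**Figure D1:**
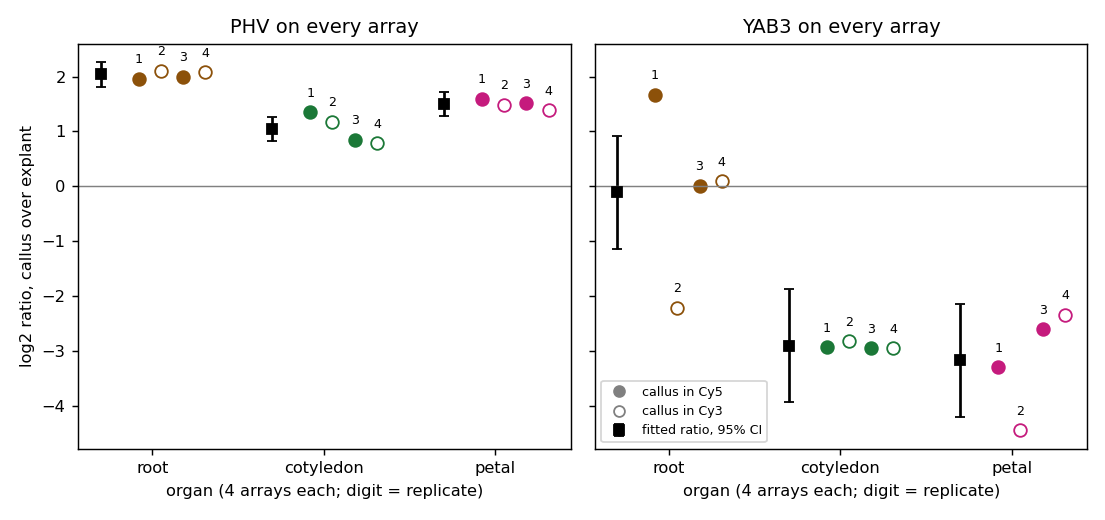
Log2 ratio of callus over explant for PHV (left) and YAB3 (right) on each of the 12 arrays, by organ, with the replicate number over each point. Filled points have callus in Cy5 and open points callus in Cy3, and squares with bars are the fitted ratios with 95% confidence intervals. PHV stays between 0.79 and 2.11, whereas YAB3 is below -2.3 on every cotyledon and petal array and spreads from -2.21 to 1.67 in root.

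The next question was whether the rise of PHV differed between organs, and each difference was tested in the same fit. The PHV ratio was lower in cotyledon than in root by a log2 difference of -1.0 (95% confidence interval -1.31 to -0.68, limma adjusted p = 0.000194), and 26.9% of tested genes were called lower in this comparison. It was lower in petal than in root by -0.54 (interval -0.85 to -0.23, limma adjusted p = 0.00709), where 26.7% of genes were called lower. Between petal and cotyledon the difference was 0.46 (interval 0.14 to 0.77, limma adjusted p = 0.0207), with 30.8% of genes called higher in petal. The order was thus root, petal and cotyledon, with every neighbouring pair past the threshold.

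An exact permutation test of 4 arrays against 4, added after the data were seen, gave p = 0.0286 for each of these 3 pairs, the smallest value this design allows, and 0.0343 after adjustment over 6 tests. Any 2 groups of 4 arrays with separate ranges give this value, so the test restates the separation and adds no further support. It used the ratios as deposited, without a dye term. The organ differences of PHV depend on how the arrays are centred. With each array centred on the median of all its values, limits included, the PHV ratio was 1.97 (root), 1.21 (cotyledon) and 1.92 (petal), and the differences were -0.76 (limma adjusted p = 0.0755) for cotyledon against root, -0.04 (0.916) for petal against root and 0.71 (0.0903) for petal against cotyledon. The last difference also missed the threshold with arrays centred on tested probes (0.40, limma adjusted p = 0.0669) and without cotyledon replicate 3 (0.38, 0.0676) or cotyledon replicate 4 (0.37, 0.0674).

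YAB3 fell in the callus of both shoot organs and gave no clear ratio in root. In cotyledon its log2 ratio was -2.93, -2.82, -2.95 and -2.95 in replicates 1 to 4, and in petal -3.30, -4.45, -2.60 and -2.34. In root it was 1.67, -2.21, 0.01 and 0.09. All 8 cotyledon and petal arrays lay below all 4 root arrays, and the cotyledon values lay inside the petal range. The margin was narrow, from -2.21 on root replicate 2 to -2.34 on petal replicate 4. How many other tested genes were separated in this way was not counted.

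The fitted YAB3 ratio in cotyledon was -2.91 ± 0.06 (SD, n = 4), 7.53-fold lower with a 95% confidence interval from 3.69 to 15.4 (limma adjusted p = 0.000205). In petal it was -3.17 ± 0.94 (n = 4), 9.0-fold lower with an interval from 4.40 to 18.4 (limma adjusted p = 8.57e-05). These intervals use a spread shared by all organs, and with each organ fitted alone the interval of the log2 ratio ran from -3.11 to -2.71 in cotyledon (limma adjusted p = 0.000238) and from -4.27 to -2.07 in petal (0.003). Calls of this direction took in 30.3% of tested genes in cotyledon and 33.4% in petal. Ratios as low as that of YAB3 were less frequent, with 2.69% of tested genes below it in cotyledon and 3.85% in petal.

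In root the fitted YAB3 ratio was -0.11 ± 1.60 (SD, n = 4) and did not pass the test (limma adjusted p = 0.853). Its 95% confidence interval ran from -1.14 to 0.92, and with root fitted alone it was wider, from -1.51 to 1.29. No change within these bounds, in either direction, was resolved. Over all tested genes, 23.0% were called lower in root. The highest and lowest values were those of replicates 1 and 2, the root arrays with the most limits. Without both, the ratio was 0.05 (limma adjusted p = 0.933), without replicate 1 it was -0.63 (0.273) and without replicate 2 it was 0.54 (0.284).

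The 2 outlying root values had the sign of their dye, 1.67 with callus in Cy5 and -2.21 with callus in Cy3. Their gap of 3.89 was reached or passed by 96 of 9391 genes, or 1.02%, whereas PHV had a gap of -0.15 between the same arrays. Root replicates 3 and 4, also of opposite dye, differed by -0.07 in YAB3. Fitted over all organs, the dye term of YAB3 was 0.77 (limma adjusted p = 0.442). A part of the dye in the root spread was not tested beyond this.

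Between organs, the YAB3 ratio was lower in cotyledon than in root by -2.80 (95% confidence interval -4.26 to -1.35, limma adjusted p = 0.00456) and lower in petal than in root by -3.06 (interval -4.52 to -1.60, limma adjusted p = 0.00232). Both intervals use the spread shared by all organs, although the SD of YAB3 was 1.60 in root, 0.06 in cotyledon and 0.94 in petal. Intervals with a separate spread for each organ were not computed for these differences. Only 1.71% of tested genes had a lower difference for cotyledon against root and 2.13% for petal against root. Petal and cotyledon differed by -0.26 (interval -1.72 to 1.20, limma adjusted p = 0.767), which did not pass and does not show that they were equal. The exact permutation test gave an adjusted p of 0.0343, 0.0343 and 0.743 for these 3 pairs, where the value 0.0343 again follows from separate ranges.

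Both differences from root passed without the root arrays that stand apart, at -2.96 (limma adjusted p = 0.00203) for cotyledon and -3.22 (0.00109) for petal. Leaving out 1 of them alone moved the values most. The differences were -3.45 and -3.71 without root replicate 2 and -2.28 and -2.54 without root replicate 1, for cotyledon and petal in that order.

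**Figure D2:**
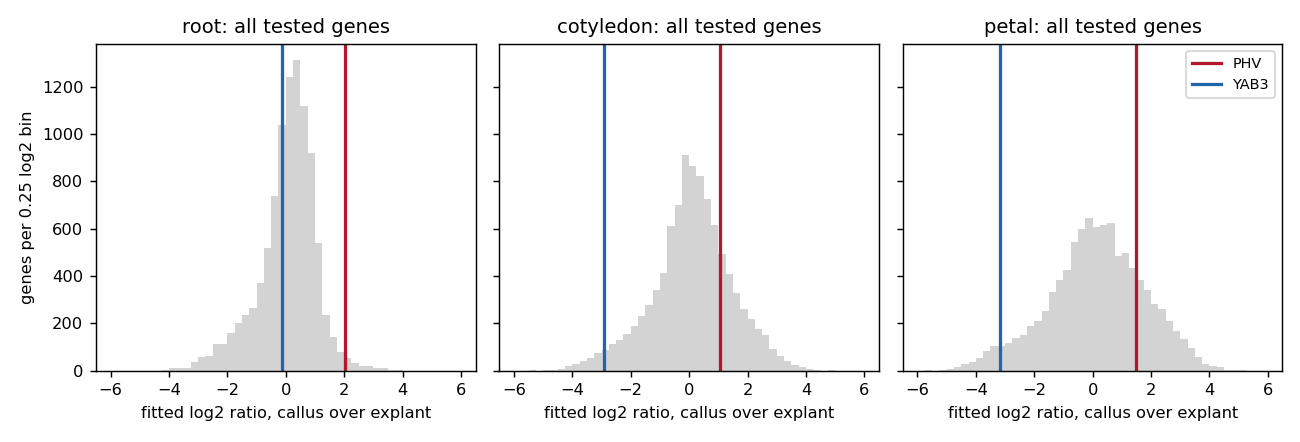
Number of tested genes by fitted log2 ratio of callus over explant in bins of 0.25, for root, cotyledon and petal, with vertical lines at PHV and YAB3. PHV lies above 98.4% of genes in root, and YAB3 lies in the lower tail in cotyledon and petal, with 2.69% and 3.85% of genes below it, but near the centre in root.

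The pair was also compared within each array, where the centring of the array cancels. The log2 ratio of PHV minus that of YAB3 was 0.28, 4.33, 1.99 and 1.99 in root replicates 1 to 4, with a mean of 2.15 ± 1.66 (SD, n = 4). In cotyledon it was 4.27, 4.01, 3.80 and 3.74 (mean 3.95 ± 0.24, n = 4), and in petal 4.90, 5.94, 4.12 and 3.73 (mean 4.67 ± 0.97, n = 4). PHV thus changed upward relative to YAB3 on all 12 arrays, from 1.22-fold on root replicate 1 to 61.2-fold on petal replicate 2.

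Whether this gap differed between organs was not resolved. It was larger in cotyledon than in root by 1.81 (exact permutation p = 0.143, 2-sided), larger in petal than in root by 2.52 (exact permutation p = 0.0857) and larger in petal than in cotyledon by 0.71 (exact permutation p = 0.257). After adjustment over the 3 pairs the values were 0.214, 0.214 and 0.257. A test of 4 arrays against 4 can reach 0.0286 unadjusted, and a single pair at that value would not pass after adjustment over the 3 pairs. On root replicate 2 the gap was as large as in the shoot organs.

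Most of the polarity pathway had no named oligonucleotide. Of 51 listed genes of the pathway, 8 had one, and 5 of these passed the filter that asks for at least 3 measured arrays in every organ: PHV, YAB3, SEU, AGO7 and SE. PHV was the one class III HD-ZIP gene of 5 with an oligonucleotide, and none of the 4 KANADI genes had one. The sequence of the PHV oligonucleotide was not used here, so a part of its close relative PHB in the signal was not tested, nor a part of FIL in that of YAB3.

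In root, 4 of the 5 tested pathway genes were called higher and 0 lower, where 39.9% of all tested genes were higher and 23.0% lower. Their median was 0.54 against 0.18 over all tested genes, and with centring on all values 2 of the 5 were called. In cotyledon 2 were higher and 2 lower, against 40.7% and 30.3% of all genes (median -0.10 against 0.13). In petal 2 were higher and 1 lower, against 45.2% and 33.4% (median 0.24 against 0.18), and with centring on all values all 5 were called. PHV and YAB3 are themselves among these 5 genes, so 3 genes remain beside the pair.

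SEU encodes SEUSS, a co-repressor that partners YABBY proteins, and its ratio went in both directions. It was -0.05, 0.38, 0.40 and 0.62 in root, -0.32, -0.20, -0.42 and -0.13 in cotyledon, and 0.24, 0.22, -0.02 and 0.16 in petal. It rose in root by 0.34 ± 0.28 (SD, n = 4, limma adjusted p = 0.00927), fell in cotyledon to -0.27 ± 0.13 (n = 4, 0.0257) and stood at 0.15 ± 0.12 in petal (n = 4, 0.159). Both calls were lost under the centring on all values, at 0.26 (0.331) in root and -0.10 (0.712) in cotyledon, and the petal ratio then passed at 0.57 (0.0265). The root call was also lost with centring on tested probes (0.18, 0.164), with root fitted alone (0.34, 0.0764) and without root replicate 3 (0.28, 0.0548) or root replicate 4 (0.27, 0.0557). The cotyledon call was lost without any 1 of the 4 cotyledon replicates, at -0.29 to -0.25.

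AGO7 encodes the Argonaute of the pathway that makes the small RNAs acting against the lower-side ARF genes. Like PHV it rose most in root, where it was 0.69, 1.32, 0.61 and 0.94, or 0.89 ± 0.32 (SD, n = 4, limma adjusted p = 0.000164). It was at -0.10 ± 0.19 in cotyledon (n = 4, 0.499) and 0.24 ± 0.39 in petal (n = 4, 0.105), both short of the threshold. In cotyledon its arrays lay from -0.28 to 0.16 and in petal from -0.22 to 0.73, and among these 8 arrays only petal replicate 2 exceeded the lowest root array. The difference of cotyledon from root was -0.99 (0.000968) and of petal from root -0.65 (0.00926). The petal ratio passed without petal replicate 1 (0.34, 0.0457). With centring on all values it passed as well (0.66, 0.0149), and the differences of cotyledon (-0.75, 0.0739) and petal (-0.15, 0.698) from root did not. The petal difference was also lost without root replicates 1 and 2 (-0.53, 0.0745).

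SE encodes SERRATE, a zinc-finger protein of microRNA processing whose mutants have polarity defects. It rose in all 3 organs, as PHV did. Its ratio was 0.54 ± 0.17 in root (SD, n = 4, limma adjusted p = 0.00154), 0.82 ± 0.10 in cotyledon (n = 4, 5.49e-05) and 1.07 ± 0.27 in petal (n = 4, 5.12e-06), and its arrays lay from 0.36 to 0.76, 0.70 to 0.94 and 0.75 to 1.35 in that order. Petal exceeded root by 0.53 (limma adjusted p = 0.0126), the reverse of the order of these organs in PHV, and 33.4% of tested genes were called higher in this comparison. The difference of cotyledon from root, 0.28, did not pass (0.152). Without root replicates 1 and 2 the difference of petal from root was 0.45 (0.0903) and did not pass. With centring on all values the root ratio was 0.46 (0.117).

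The other YABBY genes on the array were YAB5 and INO, the latter an ovule gene. YAB5 was measured on 3 cotyledon arrays, at -1.08, -1.16 and -1.81, and stood at the lower limit on the last. Only 1 root and 1 petal array measured it, and INO was measured on 2 root, 3 cotyledon and 1 petal arrays, so neither was tested with YAB3. CLV3, the stem cell signal of the shoot meristem, was at -1.34, -1.08, -1.21 and -1.11 in cotyledon but at a limit on 2 root and 2 petal arrays. With no filter on measured arrays, the cotyledon fits were -1.30 for YAB5 (limma adjusted p = 0.0407), -1.41 for INO (0.229) and -1.19 for CLV3 (0.00617). All 3 genes were at the upper limit on root replicate 1 and at the lower limit on root replicate 2.

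**Figure D3:**
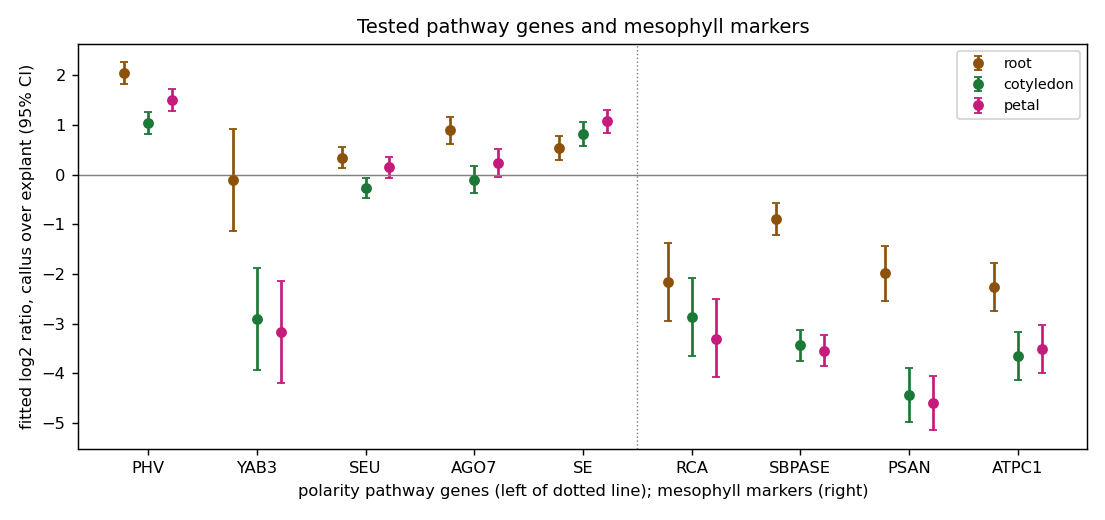
Fitted log2 ratio of callus over explant with 95% confidence intervals for the tested polarity pathway genes and for mesophyll markers, by organ. PHV and SE lie above 0 in every organ, and YAB3 and the 4 mesophyll markers lie lowest in cotyledon and petal.

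Markers of other cell types were set beside the pair. Of 27 listed markers 5 had an oligonucleotide, 4 of mesophyll and 1 of petal, whereas none of the vascular, epidermal or root meristem markers had one. The mesophyll markers were RCA (Rubisco activase), SBPASE of the Calvin cycle, the photosystem subunit PSAN and the ATP synthase subunit ATPC1. As genes of photosynthesis that changed in root too, they are not read here as a measure of mesophyll cells alone. All 4 were called lower in each organ, where 23.0%, 30.3% and 33.4% of all tested genes were lower in root, cotyledon and petal, with root ratios from -2.27 to -0.90, cotyledon ratios from -4.44 to -2.87 and petal ratios from -4.60 to -3.30. YAB3 moved with them in cotyledon and petal, and PHV moved against them in all 3 organs. Their part in either result was not tested. The dye term passed for RCA (1.9, limma adjusted p = 0.0364) and SBPASE (0.75, 0.0375), against 3.62% of all tested genes. It did not pass for PSAN (1.03, 0.0767) or ATPC1 (0.73, 0.133). In cotyledon the mean of RCA was -1.2 with callus in Cy5 and -4.53 with callus in Cy3, so the size of its fall depends on the dye. RBE, a petal gene, was at 0.62 ± 1.88 in root (SD, n = 3), 1.31 ± 0.58 in cotyledon (n = 4) and -0.74 ± 2.44 in petal (n = 4), with a limma adjusted p of 0.529, 0.115 and 0.344. The cotyledon ratio passed in 4 alternatives, namely with each organ fitted alone (0.0014), without petal replicate 2 (0.0224), with centring on all values (0.0375) and with the replicate block (0.0436).

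Genes with a like profile were found by the root mean square difference of log2 ratios over the 12 arrays, among 1088 genes with a symbol and a measured ratio on every array. For PHV the median of this difference over all genes measured on every array was 1.62. PUB25, a U-box ubiquitin ligase gene, was nearest at 0.384, with fitted ratios of 1.53 in root, 1.19 in cotyledon and 1.60 in petal. SHI, a zinc-finger transcription factor gene, followed at 0.395, with 1.51, 1.25 and 1.51. TRM22 was at 0.5, VTC4 of ascorbate synthesis at 0.530, the carboxypeptidase-like gene scpl20 at 0.537 and the leucine-rich repeat gene FLR1 at 0.542. Their Pearson r with PHV over the 12 arrays, given as a description, ran from 0.11 to 0.77.

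For YAB3 the median difference was 2.90, and the nearest genes lay farther off than for PHV. GSTU18, a glutathione transferase gene, was nearest at 0.749 (r = 0.93), followed by the cold-induced gene KIN1 at 0.815 (r = 0.88). CHLI2, a magnesium chelatase subunit of chlorophyll synthesis, was at 0.832 (r = 0.87), with ratios of 0.06 in root, -2.74 in cotyledon and -3.46 in petal. CYP78A9 at 0.835, the F-box gene SKP2A at 0.940 and TAPX, the ascorbate peroxidase of thylakoids, at 0.946 completed the list. The points share the 12 arrays and their dye layout. GSTU18 and KIN1 had root SDs of 1.38 and 1.63, near the 1.60 of YAB3, whereas CHLI2 had 0.13.

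**Figure D4:**
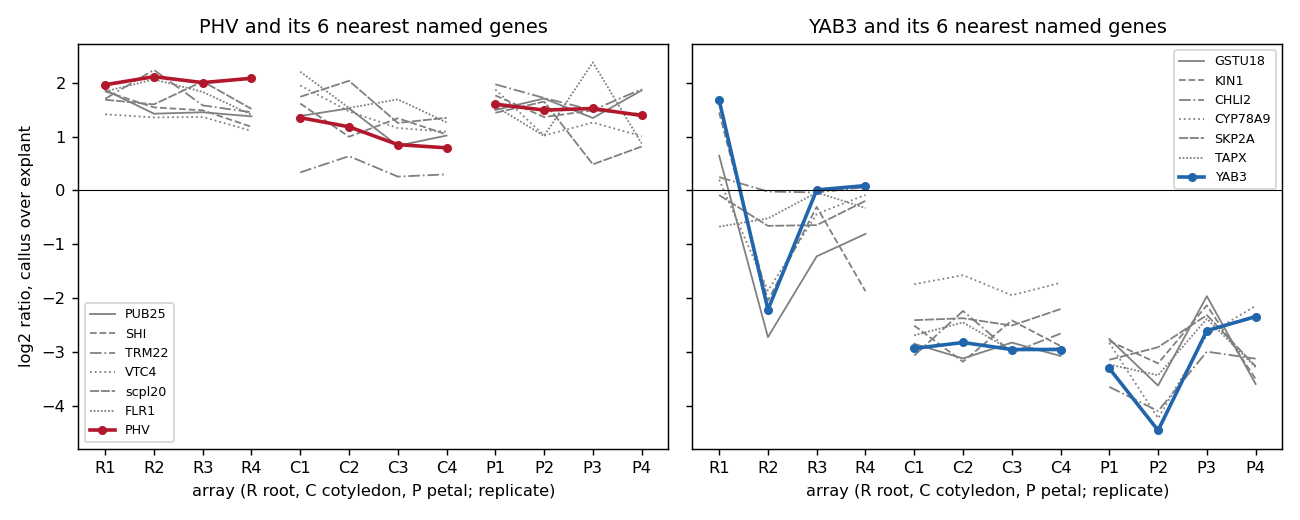
Log2 ratio of callus over explant on each of the 12 arrays for PHV (left) and YAB3 (right) in colour and for the 6 nearest named genes of each in grey. In the right panel GSTU18 and KIN1 share the swing of YAB3 between root replicates 1 and 2, whereas CHLI2 stays near 0 in root.

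Few genes shared the pattern of calls that PHV had, a pattern set from PHV itself and given as a description. Higher in all 3 organs with root above both other organs held for 20 of the 9694 genes, or 0.206%. Of these 20, only PHV and the cellulose synthase-like gene ATCSLC08 (AT2G24630) had a symbol, a gene singled out after its values were seen, whose ratios were 1.04, 0.59 and 0.37 in root, cotyledon and petal. The count depends on the settings: it ran from 4 with arrays centred on all values, when PHV was no longer among them, to 26 without petal replicate 1. The YAB3 pattern, lower in cotyledon and petal, below root in both and not called in root, was more common, with 547 genes or 5.64%. YAB3 had this pattern under every alternative that fitted the organs together, in which it took in 309 to 695 genes.

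**Figure D5:**
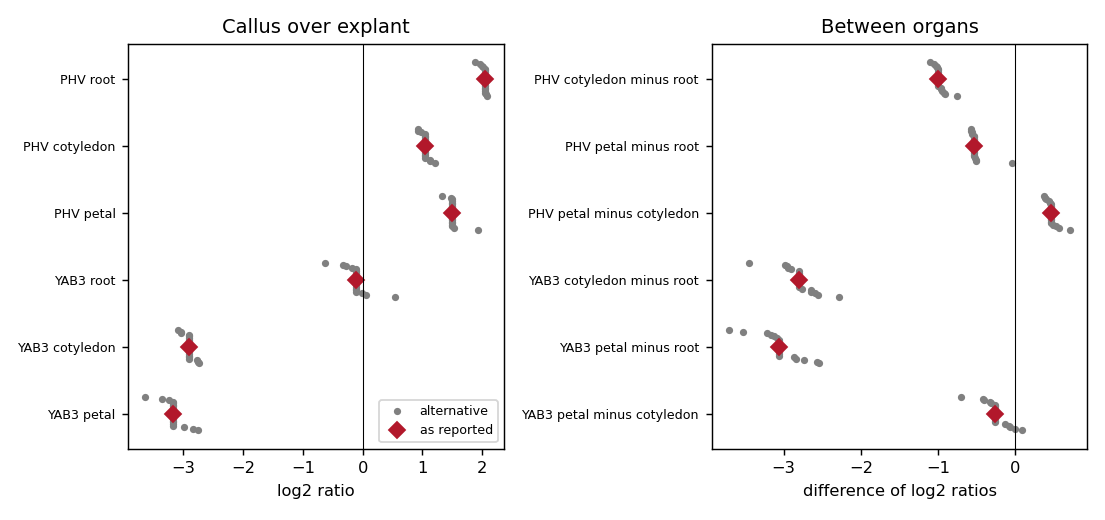
Log2 ratio of callus over explant (left) and differences of log2 ratios between organs (right) for PHV and YAB3 as reported (diamonds) and under each alternative setting (grey points). YAB3 in root and its difference between petal and cotyledon lie on both sides of 0, and for the difference of PHV between petal and root 1 alternative lies at -0.04.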

How the data were processed

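The authors deposited 1 table of log2 ratios for 12 arrays. Their scanner, background correction, normalization, centring and direction were not given in the sources used here. The log2 unit follows from the values. Per the labels' protocols, RNA was amplified by T7 transcription and then coupled to dye. The platform table named 13960 of 26090 oligonucleotides with 1 gene each, and 13912 of these matched RefSeq genes of TAIR10.1. Of 299112 values 13.9% were at a limit (tolerance 0.0001) and treated as missing. Control spots were left out, oligonucleotides measured on at least 3 of 4 arrays in every organ were kept, and those of 1 gene were averaged, which gave 9694 genes. Opposite-dye arrays of an organ correlated at 0.80 to 0.91 over measured values, so the ratios were taken as already turned to 1 direction, a choice made on measured values. With limits included the correlations were -0.59 to -0.25 (root), -0.09 to 0.43 (cotyledon) and 0.31 to 0.91 (petal).

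The model was fitted by lmFit and eBayes of limma 3.58.1 (R 4.3.3), with 1 coefficient per organ and a dye term, tested 2-sided over all 12 arrays, with Benjamini-Hochberg adjustment over 9694 genes and a threshold of 0.05. Exact permutation tests used SciPy 1.17.1. Fitted values carry the SD over the arrays. Genes named are the pair, the listed pathway and marker genes with an oligonucleotide, and the 6 nearest profiles of each. The members and lists were chosen with earlier results of these data known. The fit was first tested on simulated data.

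Alternatives kept limited ratios, centred arrays on tested probes or on all values, dropped or replaced the dye term, fitted organs alone, changed the filter, took oligonucleotides singly or left out arrays. Replicate numbers were not taken to pair samples. With organ means removed, same-numbered arrays of different organs, which also share the dye, correlated at -0.02 to 0.30. Of 12 such pairs 9, not all, exceeded 0.1. Arrays of another number and the same dye did so in 8 of 12 pairs. With the dye also removed, same-numbered arrays did so in 0 of 12, at -0.33 to 0.09. Arrays of another number and the same dye then also did so in 0 of 12, at -0.37 to -0.01. Removing the dye itself lowers correlations between arrays of the same dye, so these values cannot decide on pairing.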

Additional observations from a re-analysis of the deposited data

Results flagged for a closer look

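PHV differed between all organs, by -1.0 for cotyledon minus root, -0.54 for petal minus root and 0.46 for petal minus cotyledon. YAB3 differed by -2.80 for cotyledon minus root and -3.06 for petal minus root. SEU differed by -0.60 for cotyledon minus root (limma adjusted p = 0.00316) and 0.42 for petal minus cotyledon (0.0236), AGO7 by -0.99 for cotyledon minus root and -0.65 for petal minus root, and SE by 0.53 for petal minus root. As given above, centring on all values ended all of these PHV and AGO7 differences. Without root replicates 1 and 2 the differences of petal from root in AGO7 and SE were lost. The SEU difference of cotyledon from root was lost with centring on all values (-0.36, 0.376). That of petal from cotyledon was lost with centring on tested probes (0.36, 0.0698) or on all values (0.67, 0.0946), and without cotyledon replicate 2 (0.41, 0.0575), cotyledon replicate 3 (0.40, 0.0615) or petal replicate 1 (0.35, 0.0618). In all, 10 of 15 such tests on the 5 tested pathway genes passed in either direction. Over all 9694 genes, 5222 passed for cotyledon minus root, 5823 for petal minus root and 4800 for petal minus cotyledon, so such differences were common and nothing particular to the pathway is read from the count.

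A single array lay apart from the other 3 of its organ in 2 of 32 groups of 4 arrays, and chance gives about 1 in 20. ATPC1 was at -2.80 on petal replicate 3, and RBE was at -4.36 on petal replicate 2, the array on which YAB3 also had its lowest petal value, -4.45. No array of PHV or YAB3 met this criterion. It looks for 1 array apart and passes over 2 that lie far out in opposite directions, as YAB3 did on root replicates 1 and 2 (1.67 and -2.21).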

How the results depend on the processing

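PHV and YAB3 kept their calls and directions in cotyledon and petal, and PHV in root, under all 22 alternatives: PHV from 1.88 to 2.08 (root), 0.93 to 1.21 (cotyledon) and 1.32 to 1.92 (petal), and YAB3 from -3.09 to -2.74 in cotyledon and -3.63 to -2.75 in petal. Centring on all values, which put the median of tested genes at 0.11 (root), 0.30 (cotyledon) and 0.60 (petal) in place of 0.18, 0.13 and 0.18, ended the PHV differences of cotyledon (-0.76) and petal (-0.04) from root and of petal from cotyledon (0.71). The last was 0.40 with centring on tested probes and 0.37 to 0.56 with 1 array left out. YAB3 in root, never called, was 0.05 without root replicates 1 and 2, an alternative chosen after seeing the data, and -0.63 to 0.54 with 1 array left out. Petal minus cotyledon in YAB3 was -0.71 to 0.08 with 1 array left out, above 0 without petal replicate 2. Of tested pathway genes, 2 were called in root with centring on all values in place of 4, and in petal 5 with that centring and 5 of 8 with limited ratios kept, in place of 3. Centring on tested probes moved the share of calls that were higher in root from 63.4% to 52.2%. Centring on all values moved it in petal from 4386 of 7621 calls to 5010 of 7156, in cotyledon minus root from 50.1% to 66.0% and in petal minus root from 55.6% to 77.5%. Signs also turned for SEU in petal (-0.03, centred on tested probes), for petal minus root in SEU (0.31) and for AGO7 in cotyledon (0.07) with centring on all values, for AGO7 in cotyledon without cotyledon replicate 4 (0.01, in a range from -0.18 with 1 array left out) and for RBE in petal without petal replicate 2 (0.30, in a range from -1.58). The cause was not tested. With the replicate number as a block in place of the dye term, PHV was 2.04, 1.04 and 1.5 and YAB3 -0.11, -2.91 and -3.17 in root, cotyledon and petal, and no call of either changed. The share of ratios at a limit bounds what can be seen of weakly expressed genes.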
